A study of Mus musculus with 14 samples.

Results

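The genes described here are 77 cyclin, CDK, CDC, MCM, ORC, E2F, centromere, spindle checkpoint and mitotic kinase genes, read by 78 of the 7680 probes of a mouse spotted array whose probes name 6542 genes singly. They were taken by gene symbol from the platform's probe annotation, with no measured value in the rule: any probe with 1 symbol that begins with Ccna to Ccnj, Cdk, Cdkn, Cdc, Mcm, Orc, E2f, Cenp, Bub, Aurk or Plk in its numbered form. The choice was made with earlier results of these data known. The symbol rule also takes in genes with little to do with division, such as Cdc42, its effectors Cdc42ep4 and Cdc42ep5, the chaperone partner Cdc37 and the neuronal CDK5 activators. Every gene has 1 probe except Cdc42, which has 2. All 78 probes had a value in all 11 cell lines and 77 had one on all 14 arrays, the exception being Cdk20, empty on the first myeloma array. Ccnb1, which encodes the main mitotic B-type cyclin, was not analysed here.

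Each array carried total RNA of 1 mouse cell line in Cy5 against a commercial mouse reference RNA pool in Cy3, so that a value is the log2 ratio of line over pool. The blood-cell lines were a macrophage, a myeloma and a T-cell lymphoma line. The other 8 were a myoblast, a fibroblast, an embryo fibroblast, a mammary tumor, a skin, a liver, a kidney and a testis line. Fibroblast, mammary tumor and myeloma were each run on 2 arrays. Every other line was run on 1, so its value is a single measurement (n = 1). No line carries a treatment or an engineered allele in the labels, and strain, animal age, clone names and growth state at harvest were not given in the sources used here. By its title the study asks which genes single lines contribute to the pool. Whether paired arrays hold separate cultures is not in the labels, and p-values here then reflect only the array-to-array spread, which may be technical.

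Cells enter division through cyclin D bound to CDK4 or CDK6, which phosphorylates the retinoblastoma protein and frees E2F factors to switch on genes of S phase. Origins are prepared in G1, when the origin recognition complex, CDC6 and their partners load the ring of MCM2 to MCM7 onto DNA, and CDC45 joins that ring when an origin fires. Cyclin B with CDK1, Polo-like and Aurora kinases then drive mitosis, and the CENP and BUB proteins build and police the attachment of chromosomes to the spindle. CDK inhibitors hold these steps back: the CDKN1 family binds cyclin-CDK complexes and the CDKN2 family binds CDK4 and CDK6. In the muscle lineage, cells leave the cycle as they differentiate.

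Where the labels could be checked, the lineage markers were highest in the labelled line for 4 of 4 T-cell genes (log2 ratio 1.33 to 2.31), 4 of 4 myeloma genes (1.40 to 2.99), 5 of 5 myoblast genes (2.68 to 3.61) and 3 of 4 macrophage genes, with Lyz2 at -0.39 in the macrophage line. None of 4 collagen and fibroblast markers was highest in the embryo fibroblast line, where they lay between -4.11 and -1.17, and none of 5 epithelial markers was highest in the mammary tumor line, where Krt8 stood at -3.01 and Epcam at -1.85. None of the 4 liver, 4 kidney and 2 skin markers was highest in its own line, and 1 of 4 fibroblast and 1 of 5 testis markers was, so these lines are called by their labels only. The median log2 ratio of an array ran from -0.51 for embryo fibroblast and -0.41 for kidney to 0.12 for skin, and the other 11 arrays lay between -0.16 and 0.05. The members agreed between arrays of a line with r = 0.790 for mammary tumor, 0.746 for myeloma and 0.494 for fibroblast, across probes, which are not independent replicates. In these bulk RNA samples, fewer cells in cycle and less of a transcript per cell cannot be told apart.

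As a class the cell cycle genes varied over the lines about as much as other genes. The median range of line means was 1.91 for the 78 probes, against 2.04 for all 7423 tested probes, on the log2 scale. The range passed 4 for 7 of them (8.97%), against 10.7% of all, and those 7 were Ccnd1, Plk2, Ccnd2, Cdk2, Cdc42ep5, E2f6 and Cdc45. At the other end Orc4, an origin recognition subunit, spanned 0.70, Cenpc1, a constitutive centromere protein, spanned 0.83, and Cdk7, the kinase that activates other CDKs, spanned 0.84.

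**Figure D1:**
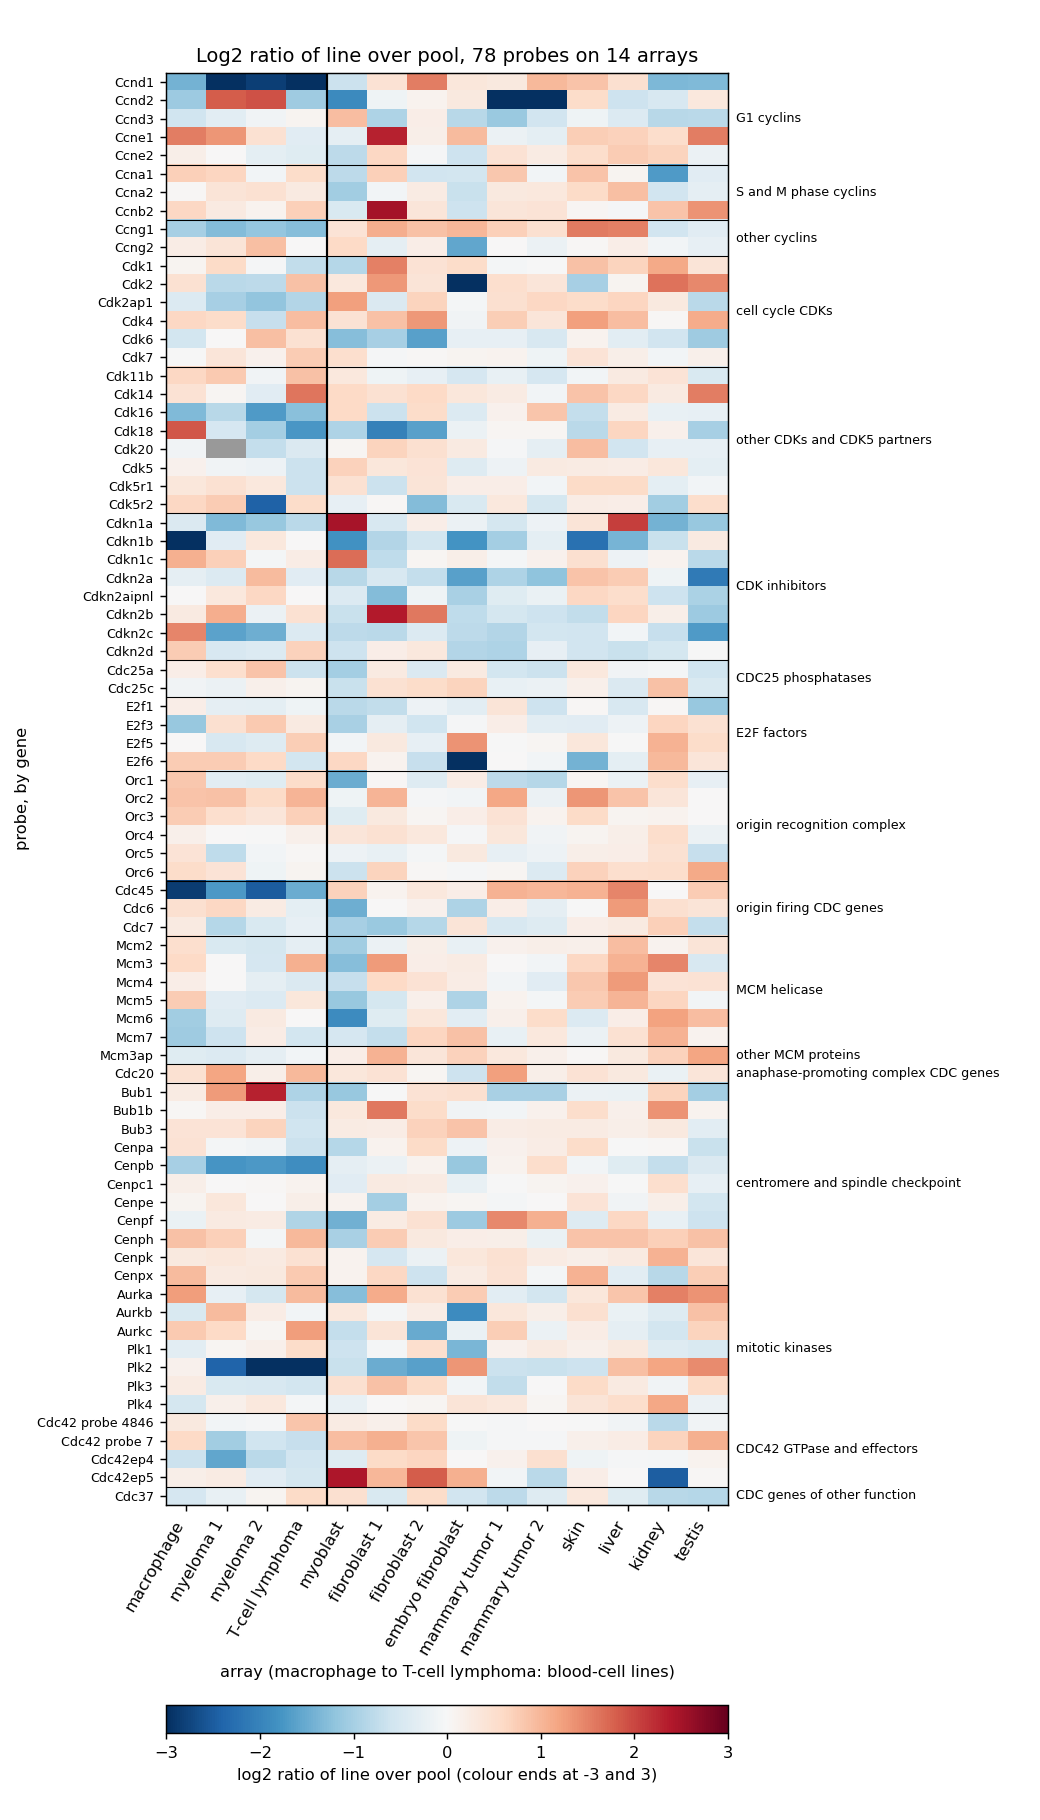
Log2 ratio of line over pool for each of the 78 probes (rows, grouped by role) on each of the 14 arrays (columns, the blood-cell lines left of the vertical line). Blue is below the pool, red is above it, colours end at -3 and 3, and grey is an empty spot; the darkest cells are those of Ccnd1, Plk2, Cdc45 and Cdkn1b in blood-cell lines, Ccnd2 in mammary tumor and Cdk2 and E2f6 in embryo fibroblast.

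Whether a gene differed among the 11 lines beyond the spread between arrays was asked with limma's moderated F test, adjusted by Benjamini-Hochberg over all 7423 probes. Of the cell cycle probes 9 of 78 passed (11.5%), where 8.0% of all tested probes did. These were Ccnd2 (adjusted p = 0.0156), Plk2 (0.0228), Cdc45 (0.0249), Ccnd1 (0.0297), Cdk2 (0.0302), E2f6 (0.0325), Ccng1 (0.0325), Cdkn1a (0.0370) and Cdk18 (0.0428) in limma's test. Differences between array 2 and array 1 were correlated across the 3 replicated lines, and with the number as a block 19 of 78 probes passed, where 23.5% of all did. In the full set 24 members (30.8%) had an unadjusted p under 0.05, as did 27.7% of all probes. None was called in limma's test with mammary tumor array 1, mammary tumor array 2 or myeloma array 2 left out. Of all probes 1.38%, 1.35% and 0.00% were called then. At an unadjusted p under 0.05 there were then 14, 15 and 21 members (17.9%, 19.2% and 27.3%), against 17.9%, 17.7% and 23.0% of all probes. With myeloma array 1 left out 2 were called, where 1.95% of all were.

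Each line was then set against the mean of the other 10 in the same limma fit. Across the 11 lines 18 differences were called at an adjusted p under 0.05, in 6 lines and for 14 probes. With the replicate block these 18 were all called and 32 more were added, and the share of all probes called rose in each line. In the myeloma line 8 of 78 were called (6.7% of all probes), 2 higher (3.29% of all) and 6 lower (3.41% of all). In the macrophage line 4 were called (4.07% of all), 2 higher (1.94%) and 2 lower (2.13%). The T-cell lymphoma line had 2 called (4.58% of all), both lower (2.36%), and the embryo fibroblast line had 2 (2.21% of all), both lower (1.79%). The mammary tumor line had 1, lower (0.862% of all called, 0.148% lower), and the myoblast line had 1, higher (0.795% of all called, 0.552% higher).

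The other 5 lines had no called member in limma's test. The share of all probes called there was 1.23% in fibroblast, 0.0135% in kidney, 0.0135% in liver, 0.0% in skin and 0.35% in testis. At an unadjusted p under 0.05 there were 16 members in fibroblast (20.5%, where 13.9% of all probes passed that mark), 15 in kidney (19.2%, against 17.4%), 13 in liver (16.7%, against 8.19%), 9 in skin (11.5%, against 8.11%) and 13 in testis (16.7%, against 11.9%). With the replicate block the called members numbered 14 in myeloma (15.4% of all probes), 4 in macrophage (9.38%), 7 in T-cell lymphoma (12.9%), 7 in embryo fibroblast (12.6%), 2 in mammary tumor (3.22%) and 9 in myoblast (6.2%). They numbered 3 in fibroblast (2.6%), 3 in kidney (4.67%), 1 in liver (0.377%), 0 in skin (0.0943%; 15.4% of members had an unadjusted p under 0.05, against 14% of all) and 0 in testis (1.47%; 24.4%, against 17.8%). With the block, except in myoblast, liver, myeloma and fibroblast, the called shares of the 78 were no larger than those of all probes. Without it they were larger in myeloma (10.3%, against 6.7%), macrophage (5.13%, against 4.07%) and embryo fibroblast (2.56%, against 2.21%). They were also larger in mammary tumor (1.28%, against 0.862%) and myoblast (1.28%, against 0.795%), and smaller in T-cell lymphoma (2.56%, against 4.58%). A single probe of the 78 makes 1.28%. Without the block each gap but those in myeloma and T-cell lymphoma was smaller than that, as were those in liver and fibroblast with it. No excess is read from these.

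Of the 5 G1 cyclin genes Ccnd1 and Ccnd2 were called and Ccnd3, Ccne1 and Ccne2 were not. Ccnd1, cyclin D1, a partner of CDK4 and CDK6, had log2 ratios of -4.85 in T-cell lymphoma, -4.01 and -2.81 on the myeloma arrays and -1.41 in macrophage. In the other 8 lines it was 1.54 and 0.44 in fibroblast, 0.96 and 0.30 in mammary tumor, 0.86 in skin, 0.48 in liver, 0.34 in embryo fibroblast, -0.65 in myoblast, -1.32 in testis and -1.35 in kidney. All 3 blood-cell lines thus lay below all 8 others, although the macrophage value lay next to those of kidney and testis.

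Against the other 10 lines Ccnd1 was lower in T-cell lymphoma by a log2 difference of -4.37 ± 0.59 (SE; 20.6-fold, adjusted p = 0.0172, limma) and in myeloma by -2.78 ± 0.44 (6.89-fold, adjusted p = 0.0143). The T-cell call was lost under quantile normalization (adjusted p = 0.0681, the highest of 14 alternatives, the lowest being 0.00492). The myeloma call was lost without myeloma array 1 (0.116, the highest of 14) or array 2 (0.0735), the lowest being 0.00195. With the replicate block Ccnd1 was also called higher in fibroblast (difference 2.06, adjusted p = 0.0277, against 0.0918 without the block, limma) and in embryo fibroblast (1.34, 0.0338, against 0.248).

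Ccnd2, cyclin D2, had a different order. It was highest in myeloma, at 1.82 and 1.91, and lowest in mammary tumor, at -3.68 and -3.65. Between them lay skin at 0.55, testis at 0.31, embryo fibroblast at 0.29, fibroblast at 0.10 and -0.13, kidney at -0.47, liver at -0.62, T-cell lymphoma at -1.06, macrophage at -1.08 and myoblast at -1.91. Both pairs of arrays agreed closely, and neither pair overlapped any other line.

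The difference from the other 10 lines was 2.63 ± 0.25 for Ccnd2 in myeloma (6.21-fold higher, adjusted p = 0.00287, limma). It was -3.45 ± 0.25 in mammary tumor (10.95-fold lower, adjusted p = 0.0113). Both calls depended on pairs of arrays: the myeloma call was lost without its array 2 (adjusted p = 0.0587; 0.00262 to 0.0587 over 14 alternatives), and the mammary tumor call without array 1 (0.112) or array 2 (0.180; 0.00236 to 0.180 over 14). Ccnd2 was called lower in myoblast as well with the replicate block (-1.52, 0.0412, against 0.102).

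Ccnd3, cyclin D3, was highest in myoblast at 0.93, and every other line mean lay between -0.84 in embryo fibroblast and 0.09 in T-cell lymphoma. The myoblast difference of 1.43 ± 0.49 was not called (adjusted p = 0.246, limma). Over the 11 lines, and after each array's median was taken off, Ccnd1 had r = -0.147 with Ccnd2 and -0.223 with Ccnd3, and Ccnd2 had r = -0.010 with Ccnd3. These values describe 11 lines that share 1 reference pool. The E-type cyclins, partners of CDK2 at the start of S phase, passed no test: Ccne1 ran from -0.35 in T-cell lymphoma to 1.54 in macrophage, with fibroblast arrays at 2.30 and 0.17, and Ccne2 from -0.78 in myoblast to 0.77 in liver.

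Ccng1, cyclin G1, is a target of p53 that binds no cell cycle CDK in the usual way. It followed Ccnd1 with r = 0.900 over the 11 lines, among the highest of all 3003 pairs of members. It was -1.29 in T-cell lymphoma, -1.30 and -1.15 on the myeloma arrays and -1.01 in macrophage, against -0.56 in kidney, -0.34 in testis, 0.40 in myoblast, 0.71 and 0.48 in mammary tumor, 1.10 and 0.87 in fibroblast, 0.99 in embryo fibroblast, 1.52 in liver and 1.55 in skin. The blood-cell lines did not overlap the others. Its myeloma difference was -1.51 ± 0.25 (2.85-fold lower, adjusted p = 0.0174, limma), and that call was lost without either mammary tumor array (0.0665 and 0.0657) or without myeloma array 1 (0.125) or 2 (0.145), with 0.0147 to 0.145 over 14 alternatives. In T-cell lymphoma the difference of -1.58 was called only with the replicate block (adjusted p = 0.0252, against 0.0522). Its relative Ccng2 was -1.57 in embryo fibroblast, again called only with the block (0.0304, against 0.0774).

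The A- and B-type cyclins, which act in S phase and mitosis, passed no F test without the replicate block, and with it Ccna1 did (adjusted p = 0.0442, against 0.371 without it, limma). Ccna2 ran from -1.03 in myoblast to 0.91 in liver, and Ccnb2 from -0.62 in embryo fibroblast to a fibroblast mean of 1.43 whose arrays stood at 2.49 and 0.37. Ccna1, the germ-cell A-type cyclin, was lowest in kidney at -1.69, a difference of -1.82 ± 0.59 that was called only with the replicate block (adjusted p = 0.0332, against 0.200 without it, limma).

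**Figure D2:**
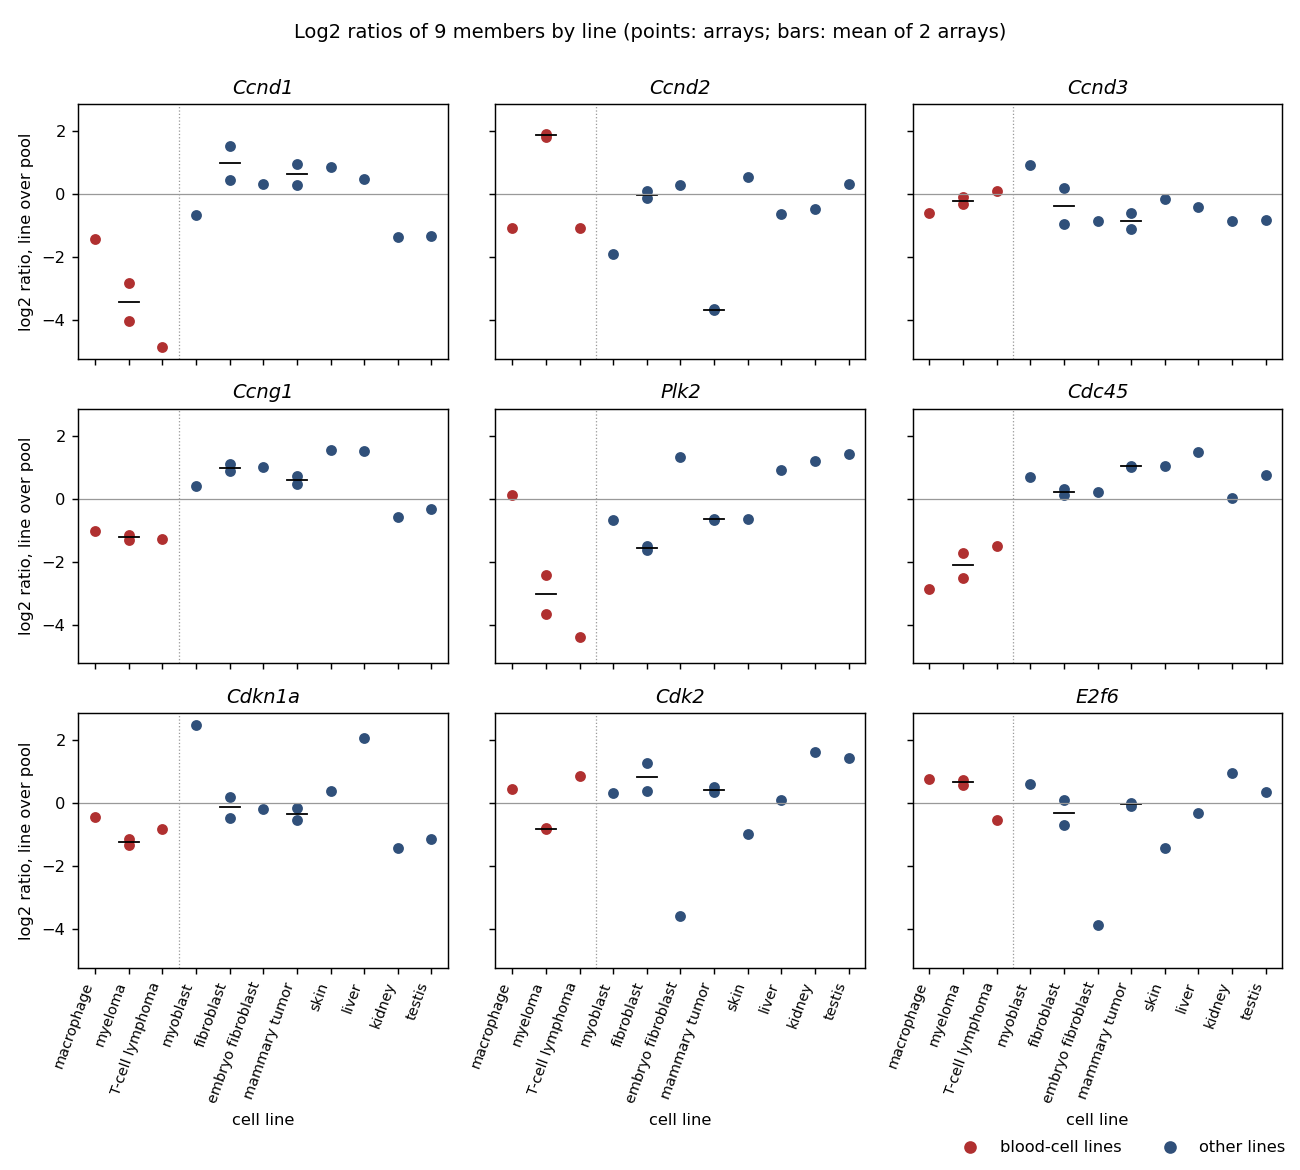
Log2 ratio of line over pool (vertical axis) by cell line (horizontal axis) for 9 genes, with a point for each array and a bar for the mean of 2 arrays; red marks blood-cell lines and blue the others. Ccnd1, Ccng1 and Cdc45 are below all 8 other lines in the 3 blood-cell lines, Ccnd2 stands apart in myeloma and mammary tumor, and Cdk2 and E2f6 have 1 low value each, in embryo fibroblast.

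Among the kinases, Cdk2, the partner of cyclins E and A, had a log2 ratio of -3.58 in embryo fibroblast. In the other lines it ran from -0.99 in skin to 1.63 in kidney, with -0.82 and -0.79 on the myeloma arrays and a mean of 0.43 over the 10. The difference was -4.01 ± 0.42 (16.1-fold lower, adjusted p = 0.0155, limma), called in 13 of 13 alternatives with adjusted p from 0.00647 to 0.0450. The value rests on 1 spot of 1 array, on the array with the lowest median of all 14, and whether that spot was at fault was not tested.

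Cdk1, the mitotic kinase, ran from -0.86 in myoblast to 1.13 in kidney and passed no test. Cdk4, the main partner of D-type cyclins, ran only from -0.10 in embryo fibroblast to 1.24 in skin. Its close relative Cdk6 ran from -1.31, the mean of fibroblast arrays at -0.99 and -1.64, to 0.46 in T-cell lymphoma, with myeloma at 0.01 and 0.90.

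Cdk18, a PCTAIRE-family kinase, was 1.86 in macrophage, against 0.64 in liver, the next line, and -1.82 in fibroblast, the lowest (arrays -2.02 and -1.62). T-cell lymphoma at -1.75 lay beside fibroblast. The macrophage difference was 2.50 ± 0.37 (5.65-fold higher, adjusted p = 0.0197, limma), and that call was lost under quantile normalization (0.0570) and without mammary tumor array 1 (0.0603) or 2 (0.0626), with 0.0106 to 0.0626 over 14 alternatives. Cdk18 was also called lower with the replicate block in T-cell lymphoma (difference -1.47, adjusted p = 0.0432, against 0.0791) and fibroblast (-1.54, 0.0496, against 0.0569). Cdk2ap1, named as a CDK2-associated protein, was called lower in myeloma in that fit (-1.21, 0.0403, against 0.0897). Cdk16, of the same family, stood at -1.32 in macrophage, -0.83 and -1.70 in myeloma and -1.25 in T-cell lymphoma, and between -0.71 in skin and 0.60 in myoblast in the other 8.

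Of the 8 probes with a Cdkn symbol 3 were called in a line: Cdkn1a in myoblast, and Cdkn1b and Cdkn2c in macrophage. The 8 include Cdkn2aipnl, whose symbol refers to CDKN2A and which is not itself a CDK inhibitor. In myoblast 6 of the 8 lay below that array's median and 2 above it, with a median of -0.56 from it. In mammary tumor the line means of all 8 lay below the median of that line, by a median of -0.64, and none was called there. Cdkn1c was close to it, and on array 2 its 0.123 was above that array's median of 0.011. Cdkn1a, which encodes p21, a p53 target, had its highest log2 ratio in myoblast at 2.48, followed by liver at 2.06. Then came skin at 0.38, fibroblast at -0.47 and 0.21, embryo fibroblast at -0.17, mammary tumor at -0.52 and -0.15, macrophage at -0.42, T-cell lymphoma at -0.81, testis at -1.13, myeloma at -1.31 and -1.13, and kidney at -1.43. Myoblast and liver stood clear of the other 9 lines, and the difference between these 2 was not tested.

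The Cdkn1a difference in myoblast was 2.80 ± 0.40 (6.98-fold higher, adjusted p = 0.0446, limma). It was lost in 6 of 14 alternatives: under quantile normalization (0.0770), with image runs as a random block (0.0822), without mammary tumor array 1 (0.101) or 2 (0.0993) and also without myeloma array 1 (0.0786) or 2 (0.0867), the lowest adjusted p being 0.00939. In liver the difference of 2.34 was called only with the replicate block (adjusted p = 0.0499, against 0.171), and so was that of -1.27 in myeloma (0.0165, against 0.0525). Cdkn1c, the p57 inhibitor, was also highest in myoblast, at 1.68 with macrophage next at 1.08, without a call (1.57 ± 0.45, adjusted p = 0.178).

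Cdkn1b, which encodes p27, was lowest in macrophage at -3.32. Skin followed at -2.23 and myoblast at -1.81, and testis was highest at 0.27. The macrophage difference was -2.42 ± 0.44 (5.36-fold lower, adjusted p = 0.0349, limma), and it was lost under quantile normalization (0.218), without mammary tumor array 1 (0.0657) or 2 (0.0753) and also without myeloma array 1 (0.0540) or 2 (0.0583), with a lowest value of 0.00900 over 14 alternatives. Cdkn1b was called higher with the replicate block in T-cell lymphoma (difference 1.24, adjusted p = 0.0409, against 0.159) and in myeloma (1.23, 0.0427, against 0.0762).

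Cdkn2c, which encodes the CDK4 and CDK6 inhibitor p18, went the other way in macrophage. It stood at 1.46 there, while all 10 other lines were below 0, from -0.08 in liver to -1.70 in testis. Myoblast was at -0.79 and myeloma at -1.59 and -1.48. The macrophage difference was 2.25 ± 0.36 (4.76-fold higher, adjusted p = 0.0233, limma). It was lost under quantile normalization (0.0587), without mammary tumor array 1 (0.0723) or 2 (0.0716) and also without myeloma array 1 (0.0509) or 2 (0.0515), the lowest of 14 alternatives being 0.00893. The myeloma difference of -1.05 was called only with the replicate block (0.0274, against 0.0672).

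Cdkn2b and Cdkn2a, neighbouring genes whose products p15, p16 and ARF are often lost in cultured cells, passed no test without the block. Cdkn2b was 2.39 and 1.59 on the fibroblast arrays and at most 0.65 in any other line mean, a difference of 2.17 ± 0.39 with an adjusted p of 0.0598 in limma's fit and 0.0187 with the replicate block. Cdkn2a was highest in skin at 0.85 and liver at 0.75, and lowest in testis at -2.13 and embryo fibroblast at -1.63. Its myeloma arrays disagreed, at -0.41 and 0.94.

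Of the E2F factors, E2f6, a repressor that does not bind the retinoblastoma protein, was -3.87 in embryo fibroblast, against -1.42 in skin, the next lowest line, and 0.97 in kidney, the highest. The difference was -3.95 ± 0.40 (15.4-fold lower, adjusted p = 0.0155, limma), called in 13 of 13 alternatives (0.00647 to 0.0450), and like that of Cdk2 it rests on 1 spot. In myeloma E2f6 was called higher only with the replicate block (1.04, 0.0353, against 0.0934). E2f1, the best known activator, kept between -1.14 in testis and 0.19 in macrophage, and its 2 mammary tumor arrays, at 0.38 and -0.62, differed by most of that range. Cdc25a, the phosphatase that activates CDK2, was highest in myeloma (0.50 and 0.85) and lowest in myoblast (-1.02), with no call. Its r of 0.924 with Bub1 over the 11 lines was the highest of all 3003 pairs of members.

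The MCM helicase genes correlated with each other over the lines, and 5 of the 6 were lowest in myoblast. The median r over the 15 pairs of Mcm2 to Mcm7 was 0.591 (0.114 for Mcm5 and Mcm7 to 0.826 for Mcm2 and Mcm4), against 0.094 over all 3003 pairs of members, taken over 11 lines with each array's median removed. Mcm7 was lowest in macrophage. The highest line was liver for 3 and kidney for 3.

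For these genes the start region is shown, because their values varied together. The windows of 300 bases lie mostly before the start and run a little past it, from RefSeq on GRCm38.p6, and capitals mark the E2F-type words TTTCCCGC, TTTCGCGC, TTTGCCGC and TTTGGCGC on either strand; neighbouring matches that overlap are joined. Of the 77 genes 66 had an entry, among them 5 of the 6 helicase genes. Mcm2 lies at chr6:88898731-88899030 on the minus strand, Mcm3 at chr1:20820263-20820562 on the minus strand, Mcm5 at chr8:75109259-75109558 on the plus strand, Mcm6 at chr1:128359656-128359955 on the minus strand and Mcm7 at chr5:138171834-138172133 on the minus strand.
Mcm2: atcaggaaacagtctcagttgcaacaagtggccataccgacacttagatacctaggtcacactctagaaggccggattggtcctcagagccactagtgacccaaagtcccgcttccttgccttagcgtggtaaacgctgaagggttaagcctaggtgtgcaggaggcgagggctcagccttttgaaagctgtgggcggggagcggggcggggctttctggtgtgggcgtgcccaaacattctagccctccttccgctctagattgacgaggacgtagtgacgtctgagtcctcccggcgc
Mcm3: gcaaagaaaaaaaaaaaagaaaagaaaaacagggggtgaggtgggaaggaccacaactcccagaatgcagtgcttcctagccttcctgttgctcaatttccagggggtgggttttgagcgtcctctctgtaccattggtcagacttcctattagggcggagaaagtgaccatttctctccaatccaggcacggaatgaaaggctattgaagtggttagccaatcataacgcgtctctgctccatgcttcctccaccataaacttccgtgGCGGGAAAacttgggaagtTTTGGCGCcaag
Mcm5: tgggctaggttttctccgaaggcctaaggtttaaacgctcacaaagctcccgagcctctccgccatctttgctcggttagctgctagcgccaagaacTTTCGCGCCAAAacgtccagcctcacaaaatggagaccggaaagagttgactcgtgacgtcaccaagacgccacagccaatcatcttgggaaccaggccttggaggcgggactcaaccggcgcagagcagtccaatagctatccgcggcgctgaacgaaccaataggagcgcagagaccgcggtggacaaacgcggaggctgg
Mcm6: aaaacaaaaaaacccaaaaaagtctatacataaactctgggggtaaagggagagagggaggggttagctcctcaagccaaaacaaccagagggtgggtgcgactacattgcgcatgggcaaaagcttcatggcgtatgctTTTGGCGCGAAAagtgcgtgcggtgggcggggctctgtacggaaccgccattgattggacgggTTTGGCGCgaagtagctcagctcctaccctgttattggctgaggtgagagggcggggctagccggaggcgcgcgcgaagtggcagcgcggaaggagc
Mcm7: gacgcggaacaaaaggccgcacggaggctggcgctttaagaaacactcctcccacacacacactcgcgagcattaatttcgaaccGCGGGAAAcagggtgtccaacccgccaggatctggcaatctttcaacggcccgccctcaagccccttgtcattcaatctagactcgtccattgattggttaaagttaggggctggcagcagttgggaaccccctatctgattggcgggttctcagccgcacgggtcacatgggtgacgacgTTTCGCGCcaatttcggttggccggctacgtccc

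The words occurred in 4 of these 5 genes, in 19.7% of the 66 cell cycle genes with an entry and in 2.6% of all 27025 genes in the table. By promoter window, the share was 15.9% of 82 for the cell cycle genes and 2.3% of 32851 for all. Mcm3, Mcm5, Mcm6 and Mcm7 held at least 1 and Mcm2 held none in this window, while a further Mcm7 window without the words is not shown. The word CCAAT was in 59.8% of the cell cycle windows, against 37.4% of all, and TTTGAA, the core of the cell cycle homology region, in 23.2% against 17.9%. These are matches of letters on both strands, given as a description with no test.

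In myoblast the log2 ratio was -1.05 for Mcm2, -1.27 for Mcm3, -0.69 for Mcm4, -1.14 for Mcm5, -1.88 for Mcm6 and -0.51 for Mcm7. All 6 were below that array's median, by a median of -1.01. In kidney all 6 were above the array's median, by a median of 1.24, with Mcm3 at 1.46, Mcm6 at 1.22 and Mcm7 at 1.05. In liver all 6 were above it too, by 1.05, with Mcm4 at 1.27, Mcm3 at 1.04, Mcm5 at 1.02 and Mcm2 at 0.93. The myeloma means of all 6 lay below their array median, by a median of -0.19.

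No single helicase gene was called against the other 10 lines without the block. In myoblast the differences were -1.97 ± 0.44 for Mcm6 (adjusted p = 0.105, limma), -1.77 ± 0.47 for Mcm3 (0.147), -1.33 ± 0.38 for Mcm5 (0.175) and -1.17 ± 0.34 for Mcm2 (0.179). With the replicate block Mcm6 (0.0254) and Mcm3 (0.0393) were called lower in myoblast, and Mcm6 was called higher in kidney (difference 1.44, 0.0471, against 0.188 without the block).

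Myoblast was also the lowest line for the loading factor Cdc6 and for 4 of 6 origin recognition genes, with Orc4 and Orc5 lowest in testis; none of these was called without the replicate block. Orc1, which is made mostly in late G1, was -1.49 in myoblast, followed by mammary tumor at -0.80 and -0.86, and highest in macrophage at 0.80. Cdc6 was -1.47 in myoblast, -0.92 in embryo fibroblast and 1.27 in liver. Their myoblast differences of -1.53 ± 0.35 and -1.66 ± 0.37 were called only with the replicate block (Orc1 0.0405 against 0.108, Cdc6 0.0381 against 0.105, adjusted p, limma).

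**Figure D3:**
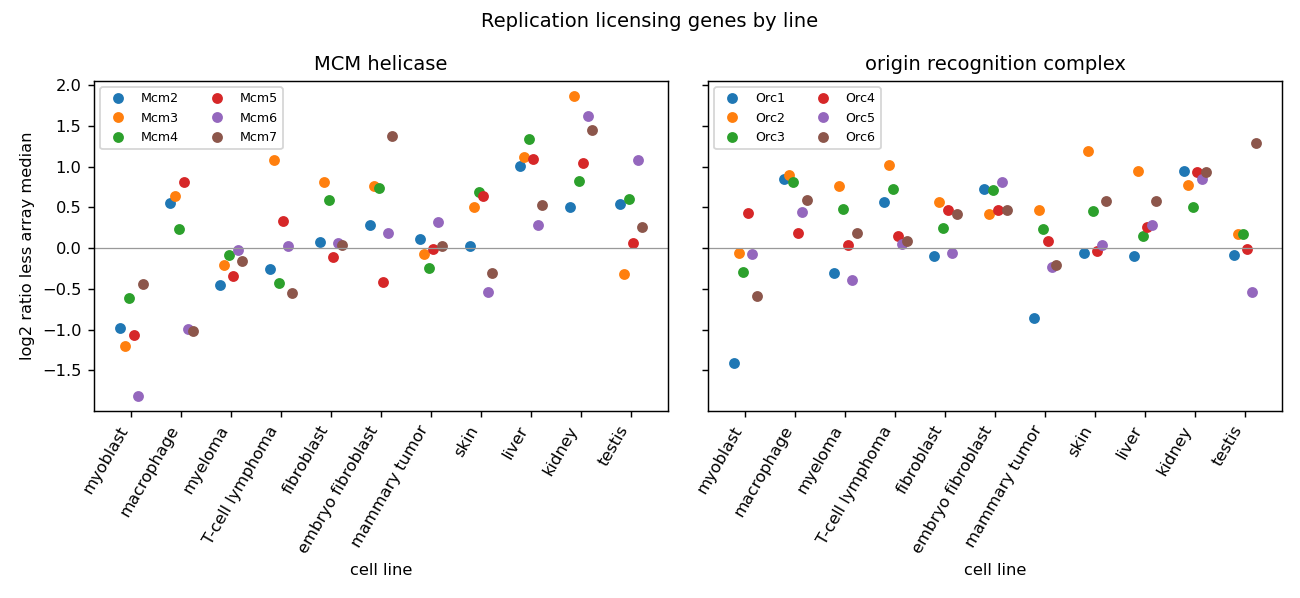
Log2 ratio less the median of its array (vertical axis) for the MCM helicase genes (left) and the origin recognition genes (right) in each of the 11 lines (horizontal axis), with a point for each gene, at the mean where a line has 2 arrays. In myoblast the 6 MCM genes lie below the array median and in liver and kidney above it, while Orc1 in myoblast is the lowest point on the right.

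Cdc45, which joins the MCM ring when an origin fires, shared part of the pattern of the ring. Like 3 of the 6 helicase genes it was highest in liver, and like Mcm7 it was lowest in macrophage. In myoblast, where 5 of the 6 were lowest, Cdc45 was above the pool. It was -2.85 in macrophage, -1.73 and -2.51 in myeloma and -1.50 in T-cell lymphoma, against 0.02 in kidney, 0.11 and 0.31 in fibroblast, 0.21 in embryo fibroblast, 0.68 in myoblast, 0.76 in testis, 1.05 and 0.996 in mammary tumor, 1.04 in skin and 1.47 in liver. Every blood-cell array was below 0 and every other array was above it. The macrophage value is from 1 array, which no alternative for that line could leave out. The difference from the other 10 lines was -3.03 ± 0.40 in macrophage (8.17-fold lower, adjusted p = 0.0157, limma), called in 14 of 14 alternatives (0.00676 to 0.0415). It was -2.22 ± 0.29 in myeloma (4.67-fold lower, 0.00780), called in 13 of 14 and lost without myeloma array 2 (0.0978; lowest 0.00608). In T-cell lymphoma the difference of -1.54 was called only with the replicate block (0.0399, against 0.0825). Mcm3ap, a nuclear export protein that carries the MCM name, ran from -0.36 in macrophage to 1.18 in testis with no call.

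Of the mitotic kinase, centromere and checkpoint genes, Plk2 was called in T-cell lymphoma and myeloma, and Bub1 and Cenpb in myeloma. Plk2, a stress-induced kinase of the Polo family that acts in G1 on centrioles, was -4.39 in T-cell lymphoma and -2.41 and -3.66 in myeloma. Fibroblast followed at -1.49 and -1.64, then myoblast at -0.66, mammary tumor at -0.64 and -0.66, skin at -0.63, macrophage at 0.13, liver at 0.90, kidney at 1.19, embryo fibroblast at 1.32 and testis at 1.42. The lymphoid lines were apart from all others and macrophage was not with them. The T-cell lymphoma value is from 1 array, which no alternative for that line could leave out.

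Against the other 10 lines Plk2 had a difference of -4.23 ± 0.48 in T-cell lymphoma (18.8-fold lower, adjusted p = 0.0163, limma), called in 14 of 14 alternatives (0.00492 to 0.0411). In myeloma the difference was -2.74 ± 0.36 (6.69-fold lower, 0.00743), called in 13 of 14 and lost without myeloma array 2 (0.0775; lowest 0.00500). In embryo fibroblast Plk2 was called higher only with the replicate block (difference 2.05, 0.0310, against 0.0827). Plk1, the mitotic Polo kinase, ran from -1.37 in embryo fibroblast, a level called lower only with the block (0.0441, against 0.107), to 0.55 in T-cell lymphoma.

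Bub1, the spindle checkpoint kinase, was 1.27 and 2.31 on the myeloma arrays, with kidney next at 0.67 and myoblast lowest at -1.15. The myeloma difference was 2.07 ± 0.34 (4.21-fold higher, adjusted p = 0.0164, limma), lost without myeloma array 2 (0.159; 0.0123 to 0.159 over 14 alternatives). Its partners Bub1b and Bub3 were not called in any line.

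Cenpb, which binds centromeric satellite DNA, was -1.88 in T-cell lymphoma, -1.77 and -1.72 in myeloma and -0.99 in macrophage. Embryo fibroblast at -1.13 fell among them, and the other 7 line means ran from -0.71 in kidney to 0.31 in mammary tumor. The myeloma difference was -1.19 ± 0.26 (2.28-fold lower, adjusted p = 0.0458, limma), lost under quantile normalization (0.0895), without mammary tumor array 1 (0.121) or 2 (0.137) and also without myeloma array 1 (0.217) or 2 (0.252), the lowest of 14 being 0.0211. The T-cell lymphoma difference of -1.33 was called only with the replicate block (0.0420, against 0.0875). So were those of Cenpf, a kinetochore protein, in mammary tumor (higher, 1.62, 0.0342, against 0.0523) and of Cenph, an inner kinetochore protein, in myoblast (lower, -1.60, 0.0348, against 0.154). Cenpa, the centromeric histone, ran from -0.85 in myoblast to 0.55 in skin with no call.

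Aurka, the spindle pole Aurora kinase, was -1.29 in myoblast and reached 1.52 in kidney, 1.35 in testis and 1.26 in macrophage. Its myoblast difference of -1.98 ± 0.39 was called only with the replicate block (adjusted p = 0.0227, against 0.0877, limma). Aurkb, the chromosomal passenger kinase, was -1.88 in embryo fibroblast and no lower than -0.45, in macrophage, elsewhere; its difference of -2.03 ± 0.40 was likewise called with the block (0.0224) and not without it (0.0569). Cdc20, which activates the anaphase-promoting complex, ran from -0.63 in embryo fibroblast to 0.98 in T-cell lymphoma, and its pairs of arrays disagreed in myeloma (1.19 and 0.17) and mammary tumor (1.24 and 0.18).

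The 2 probes of Cdc42 disagreed. Probe 7 was -1.05 and -0.61 in myeloma and was called lower there (-1.20 ± 0.26, 2.30-fold, adjusted p = 0.0442, limma), while probe 4846 was -0.09 and -0.04. The call of probe 7 was lost when both were averaged (0.170), under quantile normalization (0.0528), with image runs as a random block (0.0552), without either mammary tumor array (0.131 and 0.137), either myeloma array (0.266 and 0.165) or kidney (0.0516), the lowest value being 0.0297. Cdc42ep5, a CDC42 effector, had the widest range of the genes without a call, from -2.47 in kidney to 2.44 in myoblast, and both ends were called with the replicate block (0.0332 and 0.0369). Cdc42ep4, another effector, was called lower in myeloma only with the block (-1.10, 0.0285, against 0.0841). Cdc37, a partner of HSP90, ran from -0.85 in testis to 0.59 in T-cell lymphoma.

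The blood-cell lines were also compared as a lineage, with a mean for each line as the replicate: macrophage, myeloma and T-cell lymphoma against the other 8. Of the 78 probes 4 were called, all lower in the blood-cell lines, where 3.22% of all probes were called and 2.22% were lower. Cdc45 averaged -2.15 in the blood-cell lines and 0.68 in the others, a difference of -2.83 ± 0.38 (7.11-fold lower, adjusted p = 0.00129, limma). Ccnd1 averaged -3.22, against -0.002 in the others, a difference of -3.22 ± 0.68 (9.32-fold, 0.0228). Ccng1 averaged -1.17, against 0.64 (-1.82 ± 0.44, 3.52-fold, 0.0422), and Cdk16 -1.28, against -0.04 (-1.24 ± 0.31, 2.35-fold, 0.0492).

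The groups did not overlap for any of the 4. A call in the same comparison makes this likely, and the share of all probes without overlap was not counted. Cdc45 was called in 15 of 15 alternatives (0.000565 to 0.00756), Ccnd1 in 12 of 15 and Ccng1 in 9. Cdk16 was called in 4 of 15, its adjusted p reaching 0.143 without the T-cell lymphoma line. Ccnd1 was lost under quantile normalization (0.0549), without the myeloma line (0.0698) and without the T-cell lymphoma line (0.125). Ccng1 was lost under quantile normalization (0.0631), without myeloma array 1 (0.0510), without the macrophage (0.0827), myeloma (0.103) or T-cell lymphoma line (0.144) and without embryo fibroblast (0.0657). The count of called members was 1 without the myeloma line (1.97% of all probes) or the T-cell lymphoma line (1.56%). It was 3 without macrophage (2.53%).

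Plk2 had a wide difference and no call in this comparison. It averaged -2.43 in the blood-cell lines and 0.16 in the others (-2.60 ± 0.85, adjusted p = 0.111, limma), with macrophage among the other lines. Cenpb, -1.54 against -0.34, missed the threshold as well (-1.20 ± 0.33, 0.0678). Over all 78 probes the median difference was 0.07, against 0.11 over all tested probes. Of the MCM helicase genes Mcm7 had the widest difference, -0.83 ± 0.36, without a call (adjusted p = 0.219).

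**Figure D4:**
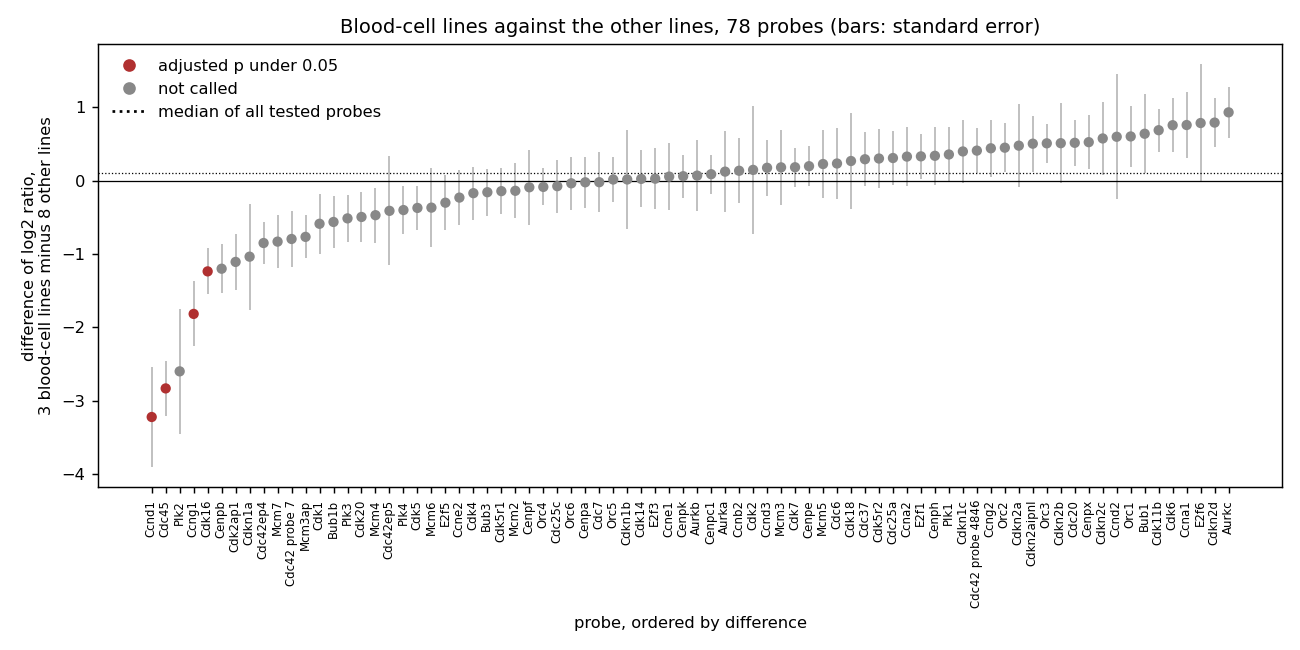
Difference in log2 ratio, mean of the 3 blood-cell lines minus mean of the 8 other lines (vertical axis), for the 78 probes ordered by that difference (horizontal axis), with bars for the SE. Red points are the 4 probes with an adjusted p under 0.05 (Ccnd1, Cdc45, Ccng1 and Cdk16), all below 0, and the dotted line is the median of all tested probes at 0.11.

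Beyond single genes, the myoblast line was the lowest of the 11 for 23 of the 78 probes (29.5%), where it was the lowest for 10.3% of all tested probes, and kidney was the highest for 16 (20.5%, against 6.9%). With each array's median removed the counts were 25 for myoblast (32.1%, against 12.7%) and 21 for kidney (26.9%, against 12.8%). The median difference of the 78 probes in myoblast was -0.31, against 0.00 for all tested probes, and in kidney 0.14, against -0.27. Among those lowest in myoblast were 5 of 11 centromere and checkpoint genes, 2 of 7 mitotic kinases and Cdk1 (-0.86). The 5 muscle markers were highest in that line, Des at 3.61, Acta1 at 3.40, Cdh15 at 3.22, Myog at 3.12 and Tnnt1 at 2.68, and their part in these values was not tested. The line has 1 array.

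Related genes outside the symbol rule were counted from lists of the same pathways. Of 20 probes of origin licensing and replication fork genes, 18 lay below the array median in myoblast, by a median of -0.62, and 17 lay above it in kidney (0.67), 18 in liver (0.65) and 15 in macrophage (0.51). Nucleotide supply genes, which make precursors for DNA, gave 8 of 10 below in myoblast (-0.52), with 9 of 10 above in liver (0.69), 8 in kidney (0.33) and 7 in macrophage (0.70). Spindle, checkpoint and cytokinesis genes gave 19 of 26 below in myoblast (-0.27), with 22 of 26 above in kidney (0.63), 23 in liver (0.57) and 21 in macrophage (0.44). G1 and S regulators were even in myoblast, 13 below and 13 above, with 21 of 26 above in kidney (0.53), 22 in liver (0.42) and 14 in macrophage (0.20).

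No gene of the first 2 lists was called in any line in limma's test. Among the 26 spindle genes Hmmr, a spindle-binding protein, was higher in T-cell lymphoma (1.86 against -0.67, difference 2.53 ± 0.42, adjusted p = 0.0270). Mki67, the proliferation antigen (1.54 against -0.18, 1.73 ± 0.25, 0.0101), and Top2a, the topoisomerase of mitotic chromosomes (0.94 against -0.36, 1.31 ± 0.28, 0.0438), were higher in myeloma, the line with the highest Bub1.

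Among 26 G1 and S regulators the antiproliferative gene Btg2 was 2.36 in myeloma, against -1.48 in the mean of the others (3.84 ± 0.28, adjusted p = 0.00156, limma). It was lower in fibroblast (-3.22 against -0.93, -2.30 ± 0.28, 0.0223) and in macrophage (-3.16 against -0.93, -2.23 ± 0.38, 0.0305). Gadd45a, a growth arrest gene induced by p53, was lower in myeloma (-2.43 against 0.03, 0.00593) and macrophage (-2.31 against 0.02, 0.0320), while its relative Gadd45b was higher in myeloma (1.72 against -0.72, 0.00705). Myc, which drives entry into the cycle, was lower in macrophage (-1.93 against 0.52, 0.04995), and Btg1 was lower in the blood-cell lines (-2.31 against -0.09, 0.0385). Calls for genes of these lists are from the fit without the block, and their dependence on the alternatives is not given. That of Myc lay just under the threshold and rests on 1 macrophage array.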

How the data were processed

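RNA of 11 cell lines was measured on 14 arrays. The values the authors deposited were read as log2 ratios of line (Cy5) over pool (Cy3), with no dye swap, per the labels. How background and spots were treated, and the log base, were not given in the sources used here. When read this way, the mean over lines of the unlogged ratio had a median of 1.003, set beside 1.199 for pool over line, 1.072 for natural logarithms and 1.87 for log10. Base 2 was assumed, every fold rests on it, and whether arrays were centred is unknown. The reference of the first mammary tumor array has extra letters in its name, so that pool may differ.

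Spots of Gapdh were averaged (80), leaving 7601 features, of which 7423 had a value in all lines and were tested with limma 3.58.1 in R 4.3.3 (two-sided, Benjamini-Hochberg adjusted over all of them, called under 0.05): each line against the mean of the other 10, an F test over lines, and the 3 blood-cell lines against the other 8 on line means. The 3 replicated lines gave 3 residual degrees of freedom, to which moderation added 3.75, and the median residual SD was 0.430; lines with 1 array were taken to vary as much as these pairs do, and the number of arrays limits the precision. Arrays titled as a second array were numbered 2 and all others 1. Image runs are 5 groups of arrays, cut here at wide gaps between the image numbers. The labels record no such run. Array 2 minus array 1 deviations correlated between lines (r = 0.536, 0.376 and 0.331), so a fit with the number as a block is given beside results it changes. That fit left 2 residual degrees of freedom. The labels do not say that arrays of the same number were processed together. The script was tested on simulated data. Members and gene lists were chosen with earlier results of these data known. Named genes are those called, the widest in each role, and a list of core cell cycle genes. Promoter windows are RefSeq's on GRCm38.p6; gene symbols come from the platform annotation.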

Additional observations from a re-analysis of the deposited data

Results flagged for a closer look

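Over the 8 lines that are not of blood-cell origin, each of 45 named probes was tested for a line standing apart by Dixon's ratio of gap to range, and 3 did. Chance gives about 1 in 20 such groups where probes are not picked by their values. Some of the 45 were named for a call or for the widest range in their role, so that rate is only a rough guide here. Ccnd3 was 0.93 in myoblast, with skin next at -0.14 (gap over range 0.604). Aurkb was -1.88 in embryo fibroblast, with kidney next at -0.39 (0.543). Cdkn2c was -1.70 in testis, with myoblast next at -0.79 (0.560). Each of these values is from 1 array.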

How the results depend on the processing

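The 18 calls of members in single lines became 50 with the replicate block and ranged from 7 to 27 when 1 array was left out; no called difference changed direction. With the replicate block the counts were 7 in T-cell lymphoma, 7 in embryo fibroblast, 3 in fibroblast, 3 in kidney, 1 in liver, 2 in mammary tumor, 14 in myeloma and 9 in myoblast, and 19 for the F test; single arrays were numbered 1 there, which the labels do not state, and the blood-cell comparison was run without this block. Quantile normalization gave 1 in T-cell lymphoma (1.02% of all probes, against 4.58% before), 1 in fibroblast (1.43%, against 1.23%) and 1 in macrophage (1.52%, against 4.07%). It gave 5 in mammary tumor (4.42%, against 0.862%), 0 in myoblast (0.620%, against 0.795%) and 1 for the blood-cell lines (1.5%, against 3.22%). In myoblast 19 members (24.4%) then had an unadjusted p under 0.05 in limma's test, as did 12.5% of all probes. Centring arrays on their median gave 1 in fibroblast (1.41% of all probes). Image runs as a random block gave 3 in fibroblast (3.06%) and 0 in myoblast (0.0674%). Leaving out 1 array gave 2 to 4 in T-cell lymphoma, 2 to 3 in embryo fibroblast, 1 to 4 in macrophage, 0 to 2 in mammary tumor, 0 to 14 in myeloma, 0 to 2 in myoblast, 0 to 9 for the F test, and 1 to 3 for the blood-cell lines, lines left out included. The myeloma count was 0 without its array 2 (0.555% of all probes), 4 without its array 1 (3.02%), 5 without either mammary tumor array (3.86% and 3.61%) and 14 without fibroblast array 2 (9.84%). Macrophage had 1 without either mammary tumor array (1.96% and 1.81%) and 2 without either myeloma array (2.66% and 2.75%). In each of these comparisons the share of all probes called moved as well. Leaving out embryo fibroblast or kidney was chosen after seeing the data. The cause of these shifts was not tested. Cdc45 in the blood-cell lines and in macrophage, Plk2 in T-cell lymphoma, and Cdk2 and E2f6 in embryo fibroblast were called in every alternative run. Macrophage, T-cell lymphoma and embryo fibroblast have 1 array each, so no alternative for these single lines could leave out the array behind the call. Whether those values would repeat was therefore not tested. Signal over background is not in the deposited values, so dim spots could not be set apart.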
